A study of Bombyx mori with 2 samples.

Results

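The genes described here are 43 gene models of the silkworm *Bombyx mori*, of 12376 with an expression value, whose BLAST names place them on the route by which proteins enter the endoplasmic reticulum (ER) and travel on to the Golgi. They were chosen by words in those names alone: Sec61, transport protein Sec, translocon, signal recognition particle, signal peptidase, coatomer, disulfide isomerase, oligosaccharyl, transmembrane emp24 and KDEL. The rule itself reads no expression value, although the pathway was taken up with earlier results of these data known. All 43 names came from *B. mori* proteins, and the weakest match, a sec31-like protein (*BGIBMGA003215*), had an E-value of 3.41e-22.

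Expression was measured by digital gene expression sequencing in the head of 2nd instar larvae shortly before the molt, in 1 library of the wildtype strain C603 and 1 library of the *nm2* mutant. The *nm2* mutant arose in C603 and does not molt in the 2nd instar. Both strains were reared on mulberry leaves, received no treatment, and contributed 1 pool of 6 larvae each. A larval head holds cuticle-forming epidermis, muscle, nervous tissue and other cells, so each value is an average over tissues, and the labels give neither the sex nor the genotype of single larvae. With 1 library per strain there was no spread between replicates and no test, and every difference below is a difference between these libraries.

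Most proteins that are secreted, and many that sit in membranes, carry a signal sequence. In animals the signal recognition particle (SRP) binds this sequence as it leaves the ribosome and docks at the SRP receptor, and the chain then passes through the Sec61 channel into the ER. Signal peptidase removes the sequence, the oligosaccharyltransferase attaches sugar chains, disulfide isomerases form disulfide bonds, COPII vesicles carry the product to the Golgi, and COPI vesicles bring escaped ER proteins back. In an insect head before a molt, the cuticular proteins laid down by the epidermis are cargo of this route.

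Levels are given in FPKM, a measure of mapped fragments scaled by gene length and library size, so that levels of different genes can be set side by side. Differences are given as log2((*nm2* + 1)/(wildtype + 1)), where a negative value means less in the *nm2* mutant. A gene was called lower or higher where at least 1 library reached 5 FPKM and the log2 difference was 1 or more in size. The libraries held 12912619 clean reads in the wildtype against 12900347 in *nm2*, of which 55.5% and 60.1% mapped to genes. Among all 11235 genes at 1 FPKM or more the median log2 difference was -0.28, and centring the genes on a median of 0 shifts every gene up by about this amount. The 3 housekeeping genes lay on both sides of 1, with *nm2* to wildtype ratios of 0.897 for *RPL3*, 0.849 for *GAPDH* and 1.17 for *BmActin3*.

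Most of the secretory pathway genes had less RNA in the *nm2* library, and the genes of the ER translocation channel had some of the largest differences. Of the 43 genes, 9 were called lower and 0 higher (20.9% lower), where 15.0% of the 9158 genes at 5 FPKM or more were called lower and 8.83% higher. The direction was shared beyond the called genes. The log2 difference was below 0 for 40 of the 43 genes (93.0%) against 67.2% of all genes, and below -0.5 for 29 of them (67.4%) against 37.0% of all genes. Their median log2 difference was -0.70, with an interquartile range of -0.97 to -0.39, and that of the 9158 genes was -0.30. Summed over the 43 genes, FPKM was 9158 in the wildtype against 5076 in *nm2*, 1.80-fold lower, which was 0.795% and 0.429% of the summed FPKM of all genes. The direction was not particular to this pathway. A log2 difference below 0 was also found for 78 of 79 cytosolic ribosomal proteins, 30 of 30 proteasome subunits and 29 of 33 heat shock proteins.

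All 43 genes were above 5 FPKM in both libraries, so that no member was lost to the limit on low values. Their median level was 98.1 FPKM in wildtype heads and 59.1 FPKM in *nm2* heads, where the median of all tested genes was 20.03 and 16.1 FPKM. The more abundant members were further apart between the libraries than the less abundant ones. Among the 15 genes with a mean of 100 FPKM or more, 6 were called lower and the median log2 difference was -0.97, and among the other 28 genes 3 were called lower with a median of -0.52. No such step appeared over all genes, of which 14.4% were called lower at 100 FPKM or more and 15.1% under it, with a median of -0.30 on both sides. The 15 abundant members include the 5 genes of the Sec61 channel and the translocon-associated protein (TRAP) complex, all 5 called lower. Level and class cannot be told apart here.

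**Figure D1:**
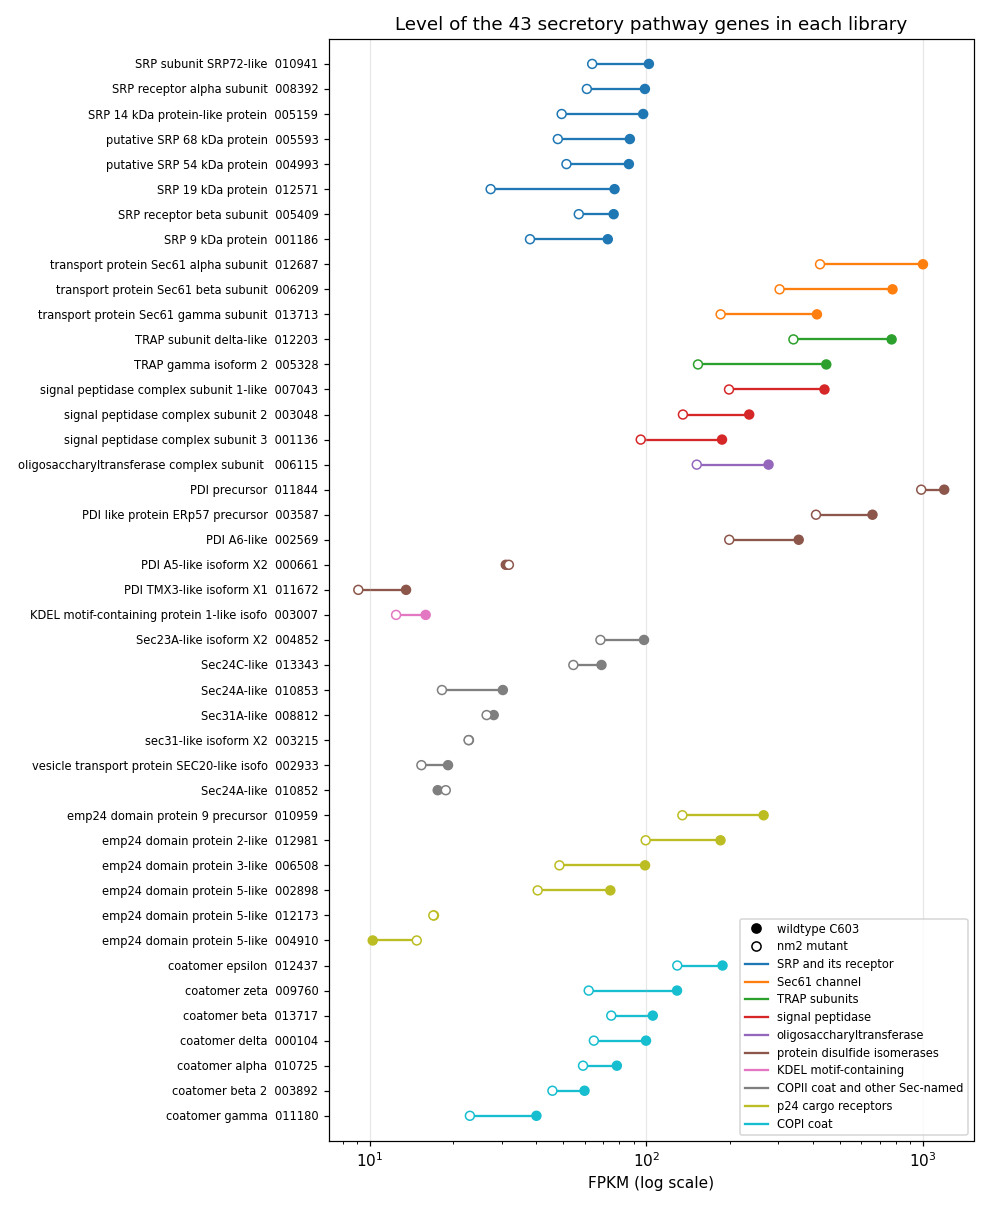
Level of each of the 43 genes in FPKM (log axis) in the wildtype library (filled circle) and the *nm2* library (open circle), 1 library each, coloured by role, with the last 6 digits of the gene identifier after each name. The open circle lies left of the filled one for 40 genes, and the 3 Sec61 and 2 TRAP genes show wide gaps at high levels.

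**Figure D2:**
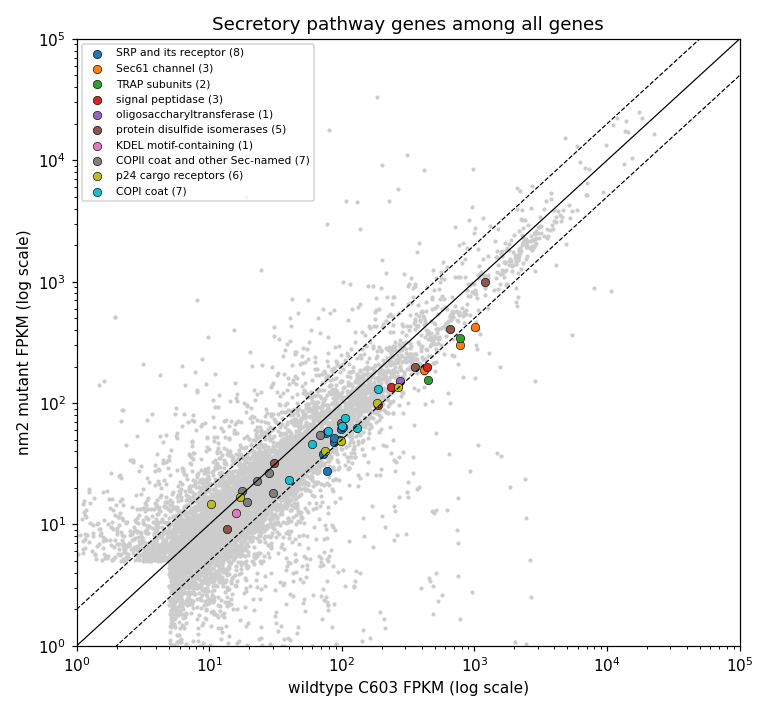
FPKM of every gene at 5 FPKM or more in a library, wildtype against *nm2* on log axes (grey, with genes below 1 FPKM in either library not drawn), and of the 43 secretory pathway genes (coloured by role, numbers in brackets). The solid line marks equal levels and the dashed lines a 2-fold difference, and the members lie mostly between the solid and the lower dashed line, with 9 called at or beyond it.

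The Sec61 channel, the pore through which nascent chains enter the ER, was lower in all 3 of its subunits. Sec61 alpha (*BGIBMGA012687*), which forms the pore itself, stood at 1002 FPKM in wildtype heads and 425 FPKM in *nm2* heads (log2 difference -1.23). Sec61 beta (*BGIBMGA006209*), a small accessory subunit, was 777 FPKM in wildtype heads and 303 FPKM in *nm2* heads (-1.35). For Sec61 gamma (*BGIBMGA013713*), the subunit that clamps the pore, the levels were 414 and 186 FPKM (-1.15). The subunits moved nearly in step: the most abundant of the 3 exceeded the least abundant 2.42-fold in the wildtype and 2.29-fold in the *nm2* mutant. Their summed level went from 2193 to 914 FPKM, 2.40-fold lower.

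The translocon-associated protein (TRAP) complex sits beside the Sec61 channel and helps some signal sequences to open it. TRAP gamma (*BGIBMGA005328*) was 448 FPKM in wildtype heads and 154 FPKM in *nm2* heads, the lowest log2 difference of the 43 genes at -1.54. TRAP delta (*BGIBMGA012203*) was 771 and 341 FPKM (-1.18). The other subunits of this complex go by another name, signal sequence receptor, and were not among the 43. The signal sequence receptor precursor (*BGIBMGA011599*) had 375 FPKM in wildtype heads and 127 FPKM in *nm2* heads (-1.55), and the beta subunit (*BGIBMGA005769*) had 593 and 254 FPKM (-1.22). All 4 TRAP genes were thus called lower, and the span between the most and the least abundant was 2.06-fold in the wildtype and 2.68-fold in the *nm2* mutant.

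The SRP and its receptor reach the ribosome before the channel does, and here the differences were smaller. The median log2 difference of the 8 genes was -0.80, all 8 were below 0 and 1 was called lower. That gene was SRP19 (*BGIBMGA012571*), which helps to assemble the particle on its RNA, with 76.8 FPKM in wildtype heads and 27.4 FPKM in *nm2* heads (-1.46). Next came the pair that pauses translation, SRP14 (*BGIBMGA005159*) at 97.5 and 49.4 FPKM (-0.97) and SRP9 (*BGIBMGA001186*) at 72.6 and 38.0 FPKM (-0.92). SRP68 (*BGIBMGA005593*) stood at 87.2 and 47.9 FPKM (-0.85), and its partner SRP72 (*BGIBMGA010941*) at 102 and 63.7 FPKM (-0.67). SRP54 (*BGIBMGA004993*), the subunit that binds the signal sequence, was 86.5 FPKM in wildtype heads and 51.4 FPKM in *nm2* heads (-0.74). The 6 subunits of the particle were at similar levels in the wildtype, within 1.41-fold of each other, and spread over 2.33-fold in the *nm2* mutant, where SRP19 was the lowest. Of the receptor, the alpha subunit (*BGIBMGA008392*) was 98.9 and 61.0 FPKM (-0.69), and the membrane-anchored beta subunit (*BGIBMGA005409*) was 76.2 and 57.0 FPKM (-0.41), the smallest difference of the 8.

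Signal peptidase was represented by 3 accessory subunits, and the summed level was 865 FPKM in wildtype heads and 430.3 FPKM in *nm2* heads. Subunit 1 (*BGIBMGA007043*) was the most abundant and the only one called, at 441 and 199 FPKM (-1.14). Subunit 3 (*BGIBMGA001136*) at 188 and 95.5 FPKM lay just outside the limit (-0.97), and subunit 2 (*BGIBMGA003048*) was 236 and 136 FPKM (-0.79). The only oligosaccharyltransferase subunit found under that word, an ostc-A protein (*BGIBMGA006115*), was 277 FPKM in wildtype heads and 152 FPKM in *nm2* heads (-0.86), and was not called.

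The disulfide isomerases of the ER lumen differed less than the channel, and 0 of 5 were called. The most abundant of the 43 genes was the disulfide isomerase *BGIBMGA011844*, with 1195 FPKM in wildtype heads and 987 FPKM in *nm2* heads, and its log2 difference of -0.28 equalled the median of all genes at this rounding. ERp57 (*BGIBMGA003587*), which works on glycoproteins, was 658 and 411 FPKM (-0.68). The A6-like isomerase (*BGIBMGA002569*) showed the largest difference of the class, 356 against 199.5 FPKM (-0.83). The less abundant TMX3-like (*BGIBMGA011672*, 13.5 and 9.09 FPKM, -0.53) and A5-like (*BGIBMGA000661*, 31.0 and 31.9 FPKM, 0.04) members did not share a direction. The KDEL motif-containing protein 1-like gene (*BGIBMGA003007*), which is not the KDEL receptor, was 15.9 and 12.5 FPKM (-0.33).

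The COPII coat, which buds vesicles from the ER, was the class nearest to the rest of the genes, with a median log2 difference of -0.30 over 7 Sec-named genes and 0 called. Its inner coat proteins Sec23A (*BGIBMGA004852*) and Sec24C (*BGIBMGA013343*) were 98.1 and 68.3 FPKM (-0.52) and 68.9 and 54.5 FPKM (-0.33), wildtype first. Sec24A was split over 2 gene models with the same BLAST hit, *BGIBMGA010853* at 30.3 and 18.2 FPKM (-0.70) and *BGIBMGA010852* at 17.6 and 18.8 FPKM (0.09), and their reads could be divided between them by the counting. The outer coat gene Sec31A (*BGIBMGA008812*) was 28.1 and 26.5 FPKM (-0.08), and the sec31-like gene was 22.8 FPKM in both libraries. SEC20 (*BGIBMGA002933*), a SNARE of the return route rather than a coat protein, was 19.2 and 15.4 FPKM (-0.30).

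The p24 proteins, cargo receptors that cycle between ER and Golgi and carry the emp24 domain, split by level. The 4 more abundant members had log2 differences between -1.01 and -0.86, and the 2 scarce ones were at -0.01 and 0.49. Member 9 (*BGIBMGA010959*) was 266 FPKM in wildtype heads and 135 FPKM in *nm2* heads (-0.97), and member 2 (*BGIBMGA012981*) was 186 and 99.5 FPKM (-0.89). Member 3 (*BGIBMGA006508*), at 99.0 and 48.5 FPKM, was the only one called (-1.01). Of the 3 genes named member 5-like, *BGIBMGA002898* was 74.1 and 40.5 FPKM (-0.86), *BGIBMGA012173* 17.1 and 17.0 FPKM, and *BGIBMGA004910* 10.3 and 14.8 FPKM, the highest log2 difference of all 43 genes.

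The COPI coat had all 7 of its subunits below 0, with a median log2 difference of -0.54 and 1 called. The called subunit was zeta (*BGIBMGA009760*), the smallest of the adaptor subcomplex, at 129 FPKM in wildtype heads and 61.9 FPKM in *nm2* heads (-1.05). The most abundant, epsilon (*BGIBMGA012437*), was 189 and 129 FPKM (-0.54), while the large scaffold subunits alpha (*BGIBMGA010725*) and beta 2 (*BGIBMGA003892*) were 78.3 and 59.1 FPKM (-0.40) and 59.8 and 45.8 FPKM (-0.38). Gamma (*BGIBMGA011180*) had 40.1 and 23.0 FPKM (-0.77) and delta (*BGIBMGA000104*) 99.8 and 64.6 FPKM (-0.62), and beta (*BGIBMGA013717*) had 106 and 74.7 FPKM (-0.49). Another gamma gene model, gamma1-COP (*BGIBMGA000484*), lacks the word coatomer in its name and had 36.5 and 24.8 FPKM (-0.54). Over the 7 coatomer-named models the span from the most to the least abundant was 4.71-fold in the wildtype and 5.62-fold in the *nm2* mutant. The least abundant was gamma *BGIBMGA011180*. This span leaves out gamma1-COP, so a change in the proportions of the subunits cannot be read from it.

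**Figure D3:**
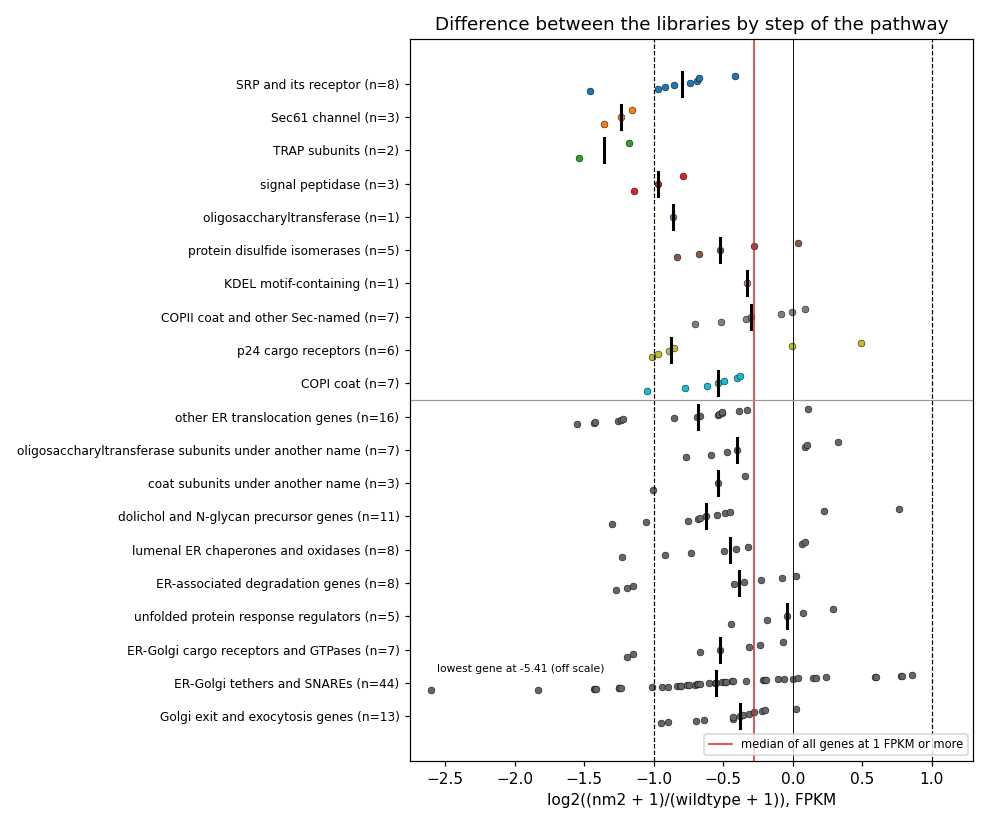
Log2((*nm2* + 1)/(wildtype + 1)) of FPKM for each gene (points) by step of the pathway, with the class median as a black bar. The 43 genes are above the grey line and coloured, the other secretory genes at 1 FPKM or more are below it in grey, the red line is the median of all genes at 1 FPKM or more (-0.28), and the dashed lines are the limits of the call. The TRAP and Sec61 medians (-1.36 and -1.23) lie furthest left and the median of the unfolded protein response list (-0.04 with its 5 genes, or 0.21 with all genes centred) lies furthest right, and the lowest tether gene (-5.41) is drawn at the left edge.

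Along the route the class medians were thus -0.80 for SRP and its receptor, -1.23 for Sec61, -1.36 for TRAP, -0.97 for signal peptidase, -0.53 for the disulfide isomerases, -0.30 for the COPII and other Sec-named genes, -0.87 for the p24 proteins and -0.54 for COPI. The 5 Sec61 and TRAP genes made up 5 of the 9 called genes, and the other 38 genes had a median of -0.68 with 4 called. These classes hold between 1 and 8 genes of the same pathway in the same libraries, and differences between classes were not tested. The limit of the call fell within a continuous range of values, since p24 member 3 (-1.01) and COPI zeta (-1.05) lay just inside it and 3 genes, p24 member 9, signal peptidase subunit 3 and SRP14, lay just outside at -0.97.

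The call also depended on the scale. After centring all genes on a median of 0, 3 of the 43 genes were called lower (TRAP gamma, SRP19 and Sec61 beta) and 0 higher. Of all genes, 9.96% were called lower and 12.3% higher, so that the share of the 43 called lower was below that of all genes. On that scale the median of the 43 was -0.43, and 36 of them were below 0 against 51.5% of all genes.

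For the 9 called genes a number of reads behind the FPKM could be estimated, because their coding lengths of 207 to 1431 bases are listed. The estimate rests on the lowest library totals that made most values whole, which are below the reads mapped to genes. Multiples of those totals also give whole values, so the reads and intervals hold only for the totals taken. Lengths are listed only for genes that the authors had selected as differing, so these intervals describe genes already chosen for their difference, and the other 34 members have none. Reads ranged from 99 for SRP19 to 5247 for Sec61 alpha in the wildtype and from 38 to 2400 for the same genes in the *nm2* mutant. Sec61 alpha was 2.36-fold lower with a 95% interval of 2.24 to 2.47, from an exact conditional binomial that covers counting error only. TRAP gamma was 2.91-fold lower (2.55 to 3.34), Sec61 beta 2.56-fold (2.24 to 2.93) and TRAP delta 2.27-fold (2.05 to 2.51). These 4 intervals lay wholly above 2-fold. SRP19 had the widest interval, 1.92 to 4.21 around 2.81-fold, and the lowest bound was 1.57 for p24 member 3. Variation between pools of larvae is not part of these intervals.

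**Figure D4:**
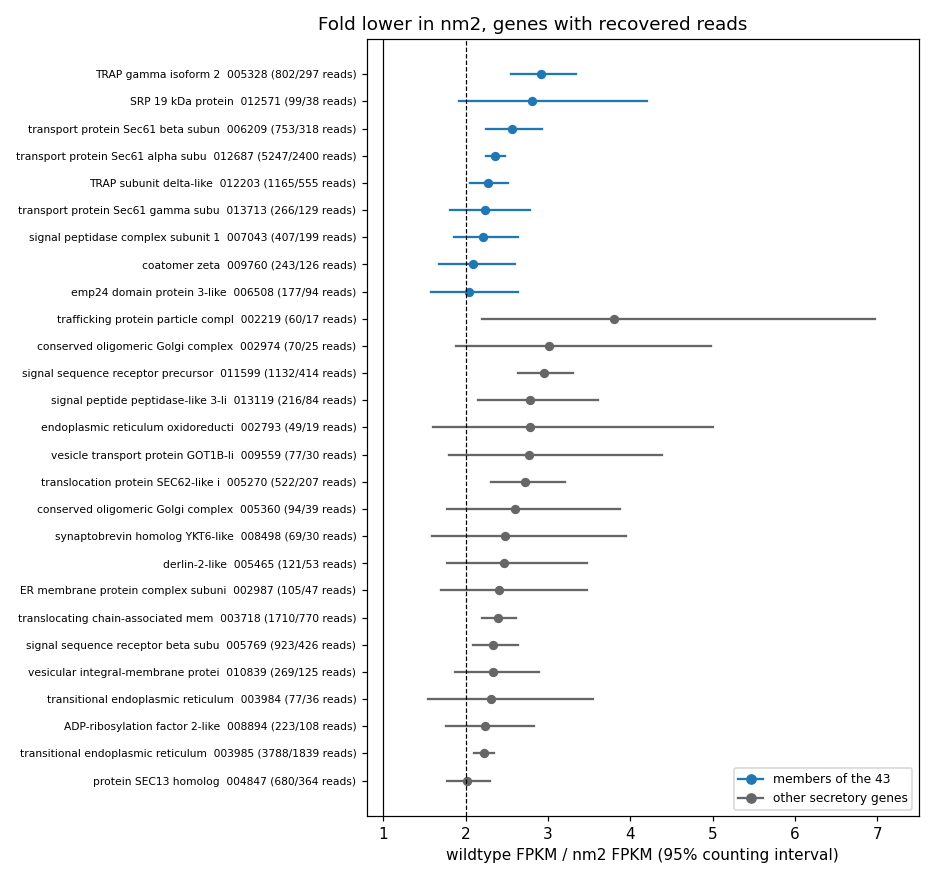
Ratio of wildtype to *nm2* FPKM (points) with 95% counting intervals (bars, from recovered reads, given in brackets as wildtype/*nm2*) for the 9 called members (blue) and 18 other secretory genes called lower (grey), with the golgin A6-like gene (interval 35.2 to 7877) not drawn. The solid line marks equal levels and the dashed line 2-fold, and all intervals shown lie above equality, with that of Sec61 alpha among the narrowest at 2.24 to 2.47.

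Further genes of the pathway carry names outside the 10 search words, and 123 of them were gathered by name into 10 lists. Of the 118 at 5 FPKM or more, 24 were called lower and 0 higher (20.3% lower, against 15.0% of all genes), and the median log2 difference was -0.51 over those at 1 FPKM or more. After centring all genes, 11 of these 118 were called lower and 4 higher (9.32% and 3.39%), where 9.96% of all genes were lower and 12.3% higher, so that the share called lower was near that of all genes. A list of 16 genes gathered for ER entry had 6 called lower and 0 higher, with a median of -0.68. One of the 6, a signal peptide peptidase-like 3 gene (*BGIBMGA013119*) at 53.3 and 19.2 FPKM (-1.43), is related to the ER signal peptide peptidase but in mammals is a Golgi protease, and without it 5 of 15 were called lower with a median of -0.67. Besides the 2 signal sequence receptor subunits, the called genes were TRAM1 (*BGIBMGA003718*), a membrane protein next to the channel, at 413 FPKM in wildtype heads and 173 FPKM in *nm2* heads (-1.26), and SEC62 (*BGIBMGA005270*), which serves entry after translation, at 132 and 48.6 FPKM (-1.42). EMC4 (*BGIBMGA002987*), a subunit of the ER membrane protein insertase, was 57.7 and 23.96 FPKM (-1.23).

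The oligosaccharyltransferase was nearer to the rest of the genes. Of 7 subunits under other names 0 were called in either direction, with a median of -0.40. The catalytic subunits STT3A (*BGIBMGA003428*) and STT3B (*BGIBMGA004898*) were 98.7 and 106 FPKM (0.10) and 31.2 and 39.4 FPKM (0.33), whereas DAD1 (*BGIBMGA000188*) was 140.1 and 82.1 FPKM (-0.76). The most abundant, *BGIBMGA002814*, was 243 and 184 FPKM (-0.40). Among 11 genes of dolichol and the sugar precursor, 2 were called lower and 0 higher, with a median of -0.63. They were *BGIBMGA001280*, a *Dhdds* gene of dolichol synthesis, at 16.5 and 6.12 FPKM (-1.30) and ALG13 (*BGIBMGA011003*) at 12.2 and 5.35 FPKM (-1.05). Another gene model with the same *Dhdds* name, *BGIBMGA001279*, went the other way at 6.32 and 7.54 FPKM (0.22). The most abundant gene of the list, *BGIBMGA001115*, was 38.2 and 22.3 FPKM (-0.75).

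Chaperones of the ER lumen were mixed. Calreticulin (*BGIBMGA000475*), which holds unfolded glycoproteins, was the most abundant of the secretory genes examined in the wildtype, and was below the disulfide isomerase *BGIBMGA011844* in the *nm2* mutant, with 1409 FPKM in wildtype heads and 848 FPKM in *nm2* heads (-0.73). Endoplasmin (*BGIBMGA012753*), the HSP90 of the ER, was 427 and 455 FPKM (0.09). Of the 8 lumenal chaperones and oxidases 1 was called lower and 0 higher, an ERO1-like oxidase (*BGIBMGA002793*) that reoxidises disulfide isomerase, at 8.63 and 3.11 FPKM (-1.23), and the median was -0.45. The list for the unfolded protein response, which adjusts ER capacity to its load, held 5 genes, of which 4 reached 5 FPKM and 0 were called. Its median of -0.04 became 0.21 with all genes centred. One of the 5, *BGIBMGA004872*, is named eIF2-alpha kinase 4, a kinase known for amino acid starvation rather than this response. Without it the median of the other 4 was -0.12, or 0.15 centred. XBP1 (*BGIBMGA002915*), a transcription factor of this response, was 250.1 and 184 FPKM (-0.44). The sensor IRE1 (*BGIBMGA000180*) was 5.88 and 7.42 FPKM (0.29), and the sensor ATF6 (*BGIBMGA007685*) was 9.08 and 8.79 FPKM (-0.04). The remaining gene of the list, an eIF2-alpha kinase-like gene (*BGIBMGA008626*), was 27.95 and 24.4 FPKM (-0.19).

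Among 8 gene models of ER-associated degradation, which returns misfolded proteins to the cytosol, 3 were called lower and 0 higher, with a median of -0.39. Over all genes at 5 FPKM or more, 15.0% were called lower and 8.83% higher. With all genes centred, 0 of these 8 were called lower. Derlin-2 (*BGIBMGA005465*), a retrotranslocation channel protein, was 67.3 FPKM in wildtype heads and 27.4 FPKM in *nm2* heads (-1.27). The ATPase TER94, which pulls substrates out of the membrane, had 2 gene models with the same name. They were *BGIBMGA003985* at 448 and 202 FPKM (-1.15) and *BGIBMGA003984* at 148 and 64.2 FPKM (-1.19). Both matched the same RefSeq gene and can share reads, so these calls may describe a single gene. The cytosolic proteasome, to which such substrates are delivered, had 16 of 30 subunits called lower and 0 higher, with a median of -1.03. Cytosolic ribosomal proteins, which make up the ribosomes that dock at the channel, had 3 of 79 called lower and 1 higher with a median of -0.35. Of 33 heat shock proteins 31 reached 5 FPKM, with 5 called lower and 0 higher and a list median of -0.63.

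Between ER and Golgi, SEC13 (*BGIBMGA004847*), the outer COPII subunit that pairs with Sec31, was 199.97 FPKM in wildtype heads and 99.2 FPKM in *nm2* heads (-1.004), at the limit of the call. It was the only one of 3 coat subunits under other names to be called lower, 0 were higher, and the median was -0.54. Of 7 cargo receptors and small GTPases 2 were called lower and 0 higher with a median of -0.52, the lectin VIP36 (*BGIBMGA010839*) at 73.9 and 31.8 FPKM (-1.19) and an ADP-ribosylation factor 2-like gene (*BGIBMGA008894*) at 130.3 and 58.3 FPKM (-1.15). The most abundant of them, the ADP-ribosylation factor *BGIBMGA005347* that recruits COPI, was 856 and 539 FPKM (-0.67). Of 45 gene models of tethers and SNAREs, which dock and fuse vesicles, 41 reached 5 FPKM, and 9 of these were called lower and 0 higher. The median over the 44 at 1 FPKM or more was -0.56. Some of these models share a name.

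The lowest of these tethers was *BGIBMGA002044*, named only as a putative golgin A6-like protein, at 53.1 FPKM in wildtype heads and 0.27 FPKM in *nm2* heads (-5.41), with 184 recovered reads against 1 which is 197-fold (95% counting interval 35.2 to 7877). TRAPPC1 (*BGIBMGA002219*), a core subunit of the TRAPP tether, was 39.6 and 10.4 FPKM (-1.83), and GOT1B (*BGIBMGA009559*) was 61.3 and 22.2 FPKM (-1.43). The RAB6-interacting golgin (*BGIBMGA012109*) was 21.1 and 7.26 FPKM (-1.42), and the most abundant tether, the TRAPPC2-like protein *BGIBMGA009129*, was 93.9 and 80.9 FPKM (-0.21). Past the Golgi, 0 of 13 genes of exit and exocytosis were called in either direction, with a median of -0.38, and the most abundant, clathrin light chain (*BGIBMGA001060*), was 312 and 192 FPKM (-0.70).

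In whole heads, fewer cells of a secreting tissue and less RNA per cell cannot be told apart for any of these genes. Marker lists of the tissues in or near the head, gathered by name, moved in both directions between the libraries. The epidermal list held cuticle and cuticular proteins, and the midgut list peritrophins, trypsins and V-type ATPase subunits. Whether their sums follow the amount of each tissue was not tested. Of all genes at 5 FPKM or more, 15.0% were called lower and 8.83% higher. The 147 epidermal and cuticular genes summed to 42277 FPKM in wildtype heads and 120589 FPKM in *nm2* heads. Of the 83 that could be called, 27 were lower and 40 higher, and 17 and 30 of the 147 were at 0. The 43 fat body genes summed to 16305 and 37730 FPKM (3 lower and 13 higher of 26, 7 and 6 at 0). The 54 midgut genes summed to 25243 and 44723 FPKM (4 lower and 12 higher of 42, 3 and 2 at 0). The 9 silk gland genes summed to 6034 and 7881 FPKM (1 lower and 1 higher of 8, none at 0 in the wildtype against 1 in *nm2*). The 20 muscle genes summed to 27648 and 19413 FPKM (1 lower and 0 higher of 18, none at 0). The 15 neuronal genes, which mark the nervous tissue of a head, summed to 159 and 147 FPKM (1 lower and 1 higher of 7, 1 at 0 in the wildtype). The part of tissue make-up in the lower levels of the secretory pathway genes was not tested.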

How the data were processed

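Reads of 49 bases were mapped to SilkDB gene models by the authors, who estimated abundance with RSEM and deposited FPKM for 12376 genes, along with clean read counts and the percent of reads mapped. Their fold changes, P-values, FDR and GO and KEGG enrichments were not used. Members and lists were chosen with earlier results of these data known, and the 10 further lists were completed by name with values in view. Named genes were those called, all SRP, Sec61, TRAP and signal peptidase genes, and in other classes the 3 most abundant and 3 with the largest difference; the remaining members were added. In the further lists up to 4 called genes and the most abundant were named. STT3A, STT3B, DAD1, endoplasmin, the 2 sensors, the eIF2-alpha kinase-like gene, gamma1-COP and the other *Dhdds* model were added after their values were seen.

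From the deposited FPKM, log2 differences were computed with a pseudocount of 1 FPKM. List medians were taken over genes with 1 FPKM or more in at least 1 library. Reads were recovered as FPKM times coding length (less 36 or 35 bases) times a library total. The total came from the lowest range that made most values whole. It was 3756000 in the wildtype, where 90% of 200 values were within 0.1 of a whole read, and 4045000 in the *nm2* mutant (95.9% of 291). Both are below the reads mapped to genes, 55.5% of 12912619 clean reads in the wildtype and 60.1% of 12900347 in *nm2*. A run of the search on simulated counts, with totals near those found, cannot show whether a multiple is the true total. Alternatives were a sum of 1000000, a median of all genes of 0, the 3 housekeeping genes, pseudocounts of 0.1 and 0.01 FPKM, and minimums of none, 1, 5 or 20 FPKM. RefSeq assembly ASM3026992v2 gave gene names and neighbours only. Python 3.11.15, NumPy 2.4.6, pandas 2.3.3 and SciPy 1.17.1 were used.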

Additional observations from a re-analysis of the deposited data

How the results depend on the processing

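No paired analysis was possible because each strain had 1 library. Of 349 values over 43 results, 312 stayed within the limits set for them (0.1 for a median log2 difference) and 37 moved. Some of the 349 could not move, because all 43 members were above 5 FPKM in both libraries and minimums up to 5 FPKM left them unchanged. Calling 12 or 7 members in place of 9 counted as unmoved. Most moves came when the median of all genes was set to 0. On that scale the members called lower went from 9 to 3 and their median to -0.43, with class medians of -1.08 (TRAP), -0.95 (Sec61), -0.69 (signal peptidase), -0.58 (oligosaccharyltransferase), -0.52 (SRP), -0.60 (p24), -0.27 (disulfide isomerases), -0.26 (COPI), -0.069 (KDEL motif) and -0.036 (COPII). In the further lists, other ER entry genes had 3 called lower and a median of -0.40, cargo receptors 0 and -0.24, degradation genes 0 and -0.13, other coat subunits 0 and -0.27, dolichol genes 1 lower, 1 higher and -0.37, and tethers 6 lower, 3 higher and -0.29. The medians were -0.17 for lumenal chaperones, -0.12 for oligosaccharyltransferase subunits under other names, -0.12 for Golgi exit genes and 0.21 for unfolded protein response regulators, the last with its sign turned. Scaled on the housekeeping genes, SEC13 was no longer called (0 other coat subunits lower). With pseudocounts of 0.1 and 0.01 FPKM 1 tether was called higher. With a minimum of 20 FPKM, medians were -0.68 for tethers, -0.69 for degradation genes and -0.32 for unfolded protein response regulators, and 0 dolichol genes and 0 lumenal chaperones were called lower.

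Leaving out the eIF2-alpha kinase 4 or the signal peptide peptidase-like 3 gene was chosen after seeing the data. With a sum of 1000000, 12 members were called lower, and on the housekeeping scale 7. Under each alternative 0 members were called higher. The sign was kept by 39 of 43 members with the median set to 0, 41 on the housekeeping scale, 42 with a sum of 1000000 and 43 with either pseudocount. Depth limited the 38 reads of SRP19 in the *nm2* mutant more than the 2400 of Sec61 alpha. Precision across larvae is unknown.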

Other observations

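Of the 43 genes, 32 matched a RefSeq gene, and these lay on 19 chromosomes. Of the 109 secretory genes that could be placed in RefSeq order, 4 pairs had at most 1 protein-coding gene between them. The A6-like disulfide isomerase and the oligosaccharyltransferase subunit 1-like gene (*BGIBMGA002570*, 194 FPKM in wildtype heads and 129 FPKM in *nm2* heads, log2 difference -0.59) were direct neighbours, as were derlin-2 and the TRAPPC13-like gene (*BGIBMGA005464*, 23.6 and 12.2 FPKM, -0.90).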
